A study of Mus musculus with 48 samples.

Results

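The glutathione and antioxidant genes described here are 51 of the 55450 genes measured by RNA-seq in differentiating mouse preadipocytes and mouse embryonic fibroblasts (MEFs). They were taken by symbol from both count tables, as every numbered Gsta, Gstm, Gsto, Gstp, Gstt, Gstk, Gstz, Gpx and Prdx gene, plus Nfe2l2, Keap1, Nqo1, Hmox1, Gclc, Gclm, Gsr, Txn1, Txnrd1, Sod1, Sod2, Sod3, Srxn1, Mt1 and Mt2. Pseudogene symbols were left out. The rule itself used symbols and no measured value, but it was set with earlier results of these data known. The set held 22 glutathione S-transferases, 8 glutathione peroxidases, 6 peroxiredoxins with their repair enzyme Srxn1, 3 superoxide dismutases, 3 genes of glutathione synthesis and recycling, and pairs of metallothioneins, thioredoxin genes, redox regulators and further NRF2 target enzymes. Between 42 and 44 of the 51 members had enough reads to be tested in any one comparison.

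The study compared cells of wild-type (WT) C57BL/6 mice with cells of double knockout (DKO) mice, which have neither HMGN1 nor HMGN2, chromatin proteins that bind to nucleosomes. Preadipocytes came from the inguinal white fat of mice 8 to 12 weeks old and were sampled on days 0, 3, 6 and 9, and MEFs were sampled on days 0, 4, 8 and 12. Preadipocytes of both genotypes received a cocktail of insulin, dexamethasone, IBMX, T3 and rosiglitazone for 4 days and then insulin and T3. The cocktail is used to drive differentiation into brown-like adipocytes. MEFs of both genotypes stayed in the cocktail for 8 days and then received insulin and T3 for 4 days. Each of the 16 groups had 3 libraries, 48 in all. The DKO mice carry both deletions in all tissues, so the genes were missing before the cells were taken into culture. The paper describes the data as coming from 3 biological replicates, but the sources used here do not say how many animals stood behind each library. The p-values therefore measure the spread between these libraries. In cultures that mix cell types, fewer cells of a type and less RNA per cell cannot be told apart.

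Glutathione is a small peptide that donates electrons to neutralise peroxides and reactive compounds. Gclc and Gclm form the rate-limiting enzyme of its synthesis, and Gsr regenerates it after use. Glutathione S-transferases attach it to reactive lipids and foreign compounds, glutathione peroxidases and peroxiredoxins reduce peroxides, and superoxide dismutases turn superoxide into hydrogen peroxide. Many of these genes are targets of NRF2, the transcription factor encoded by Nfe2l2, which the adaptor KEAP1 marks for degradation until oxidants or electrophiles modify it. NRF2 binds DNA at antioxidant response elements. Metallothioneins bind zinc and copper, and their genes carry metal response elements. Fat cells burn and store fatty acids and rely on these systems in the mitochondria and the cytosol as they fill with lipid.

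Total counts were 18962481 to 36006679 per library, and the members together took between 0.331% and 1.06% of them. Hmgn2 had at most 10 counts in every DKO library and at least 744 in every WT library. Hmgn1 reads remained in DKO libraries, at 70.01 to 115 CPM (counts scaled to a common library total) against 76.1 to 224 in WT libraries, and the deleted part of that gene was not examined. The summed level of 6 adipocyte markers rose from a range of 15.5 to 19.3 CPM over WT preadipocyte libraries on day 0 to one of 18538 to 18786 CPM on day 9. In WT MEFs it was 24.6 to 27.3 CPM on day 0 and 9784 to 10056 CPM on day 12. Markers of macrophages and blood cells were also abundant, and all 5 of them were detected in every group. In WT MEFs their sum was 6264 to 8368 CPM on day 0 and 3656 to 3683 CPM on day 12. In preadipocytes it was 115 to 431 CPM on day 0 and 2358 to 5011 CPM on day 9 in WT cells, and on day 6 it was 4732 to 7877 CPM in WT against 1737 to 3581 CPM in DKO cells. The leading gene of this sum was Lyz2, a lysozyme gene of macrophages and granulocytes. Several MEF libraries stood apart from the other libraries of their group. These were WT replicate 1 on day 4, and WT replicate 2 and DKO replicate 3 on day 8. The 3 DKO libraries of day 0 in MEFs lay far from one another.

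Promoter sequences are shown for 5 members that rose in MEFs, to let the response elements be read beside the measurements. The sequences are RefSeq promoters of build GRCm38.p6, from 250 bases before to 50 bases after the start of the gene, written 5′ to 3′ along the gene's strand. Of the 51 members, 44 had 1 or more promoters in this set. Capitals mark matches on either strand. In Mt1 (chr8:94178839-94179138, plus strand) and Mt2 (chr8:94172368-94172667, plus strand) they mark TGCNCNC, a loose metal response pattern. It allows more bases than the core of the metal response element, so a match need not be that element. In Gclm (chr3:122245307-122245606, plus strand), Srxn1 (chr2:152105274-152105573, plus strand) and Prdx1 (chr4:116685349-116685648, plus strand) they mark the antioxidant response element core TGACNNNGC.
Mt1: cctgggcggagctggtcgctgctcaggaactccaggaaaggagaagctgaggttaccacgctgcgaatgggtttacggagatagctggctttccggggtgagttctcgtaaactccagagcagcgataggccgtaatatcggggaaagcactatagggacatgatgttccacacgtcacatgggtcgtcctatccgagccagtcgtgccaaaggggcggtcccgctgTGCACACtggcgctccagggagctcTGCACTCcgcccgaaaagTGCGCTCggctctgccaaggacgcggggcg
Mt2: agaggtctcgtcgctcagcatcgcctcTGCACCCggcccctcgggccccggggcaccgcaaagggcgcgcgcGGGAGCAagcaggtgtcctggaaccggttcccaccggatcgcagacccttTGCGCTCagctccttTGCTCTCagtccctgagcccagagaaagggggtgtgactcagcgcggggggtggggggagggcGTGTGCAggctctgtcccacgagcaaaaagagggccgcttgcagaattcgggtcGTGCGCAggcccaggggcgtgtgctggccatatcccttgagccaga
Gclm: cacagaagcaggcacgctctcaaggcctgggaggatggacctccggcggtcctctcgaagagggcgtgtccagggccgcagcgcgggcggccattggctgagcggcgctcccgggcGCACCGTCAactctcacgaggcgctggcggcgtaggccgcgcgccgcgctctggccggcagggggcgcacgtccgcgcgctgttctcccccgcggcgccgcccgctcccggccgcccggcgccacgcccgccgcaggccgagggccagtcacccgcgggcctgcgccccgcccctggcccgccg
Srxn1: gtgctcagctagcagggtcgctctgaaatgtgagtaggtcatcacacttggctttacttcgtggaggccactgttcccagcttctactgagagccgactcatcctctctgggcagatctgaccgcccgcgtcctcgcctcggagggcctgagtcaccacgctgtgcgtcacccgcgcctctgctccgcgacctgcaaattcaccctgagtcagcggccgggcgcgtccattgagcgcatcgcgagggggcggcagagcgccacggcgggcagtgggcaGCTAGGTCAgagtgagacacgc
Prdx1: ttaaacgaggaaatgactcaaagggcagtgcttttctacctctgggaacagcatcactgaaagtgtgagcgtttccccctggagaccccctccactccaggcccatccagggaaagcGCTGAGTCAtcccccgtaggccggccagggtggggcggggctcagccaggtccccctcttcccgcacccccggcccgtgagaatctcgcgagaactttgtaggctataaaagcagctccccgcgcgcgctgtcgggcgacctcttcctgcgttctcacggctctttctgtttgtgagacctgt
The Mt2 promoter held 6 matches to the loose metal response pattern and the Mt1 promoter 3, while 51% of all 32851 promoters held at least 1. The Mt2 window also held 1 match to the antioxidant core, TGACTCAGC at bases 172 to 180. An antioxidant core was found in promoters of 10 members, Gsta3, Nfe2l2, Srxn1, Gstm5, Gstm7, Gclm, Prdx1, Mt2, Txnrd1 and Sod1, and in 12.4% of all promoters. Of those 10 members, 8 rose in WT MEFs between days 0 and 4. Of the 27 members with promoters that lacked the core 10 rose, beside 14.8% of all genes tested. In WT preadipocytes between days 0 and 3, 1 of 10 members with the core rose and 3 of 26 without it, beside 11.1%. The share among all genes with the core was not computed. Nqo1, which rose in MEFs, had no match to the core, and Gclc and Hmox1, which also rose there, had no promoter in this set. A match is a description of these letters only. The loose metal response pattern was searched on both strands too, and 1 of its matches in the Gclm window overlaps the antioxidant core.

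Some members were hardly expressed. Gpx2, Gpx5 and Gpx6, which are glutathione peroxidases of the gut, the epididymis and the olfactory epithelium, had at most 1 count in any of the 48 libraries. Gstm3 had at most 2, and Gstp3 and Gstt4 had at most 5. Gsta2 had at most 23 counts and Gsta1 at most 39. These last 2 transferases are near copies, and 90.5% of the 50-base words in Gsta1 transcripts and 49.8% of those in Gsta2 transcripts also occur in other genes. The same share was 54.3% for Gstp2, 34.7% for Gpx4, 33.7% for Gstp1, 21.04% for Sod2 and 18.9% for Gstm1, so the split of reads between these genes and their copies is uncertain. In mm10 (GENCODE M21) the 7 Gstm genes lie side by side on chromosome 3, the 3 Gstp genes on chromosome 19 and the 4 Gstt genes on chromosome 10. Of the members that recur below, Gclc lies at chr9:77754535-77794485, Nqo1 at chr8:107388225-107403206, Hmox1 at chr8:75093621-75100589, Sod2 at chr17:13006846-13040063, Prdx3 at chr19:60864051-60874556, Gstz1 at chr12:87147165-87164723, Gsta3 at chr1:21240589-21265661 and Gsta4 at chr9:78182774-78209349, and the values given for them are reads over all exons of the gene.

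Levels per kilobase of exon give a rough order of members within a cell type. The length used was that of all annotated exons of a gene joined. For Mt1 it was 1246 bases, the whole span of the gene, and for Sod2 10008 bases. Where this length exceeds that of the transcripts present, the value is too low, and its effect on the order was not tested. In WT preadipocytes on day 0, Mt2 stood at 289.8 ± 31.1 CPM per kilobase (mean ± SD, n = 3), Gsto1 at 246 ± 17.3 and Gpx3, the secreted glutathione peroxidase, at 220.0 ± 15.9. On day 9 Mt2 had the highest value at 1573 ± 50.6, followed by Gpx3 at 692 ± 132 and Mt1 at 474 ± 28.9 CPM per kilobase. In WT MEFs on day 0, Gpx3 led at 379 ± 75.9 CPM per kilobase, ahead of the abundant cytosolic peroxiredoxin Prdx1 at 184 ± 9.28 and the haem-degrading enzyme Hmox1 at 108 ± 4.14. On day 12 Gpx3 stood at 688 ± 14.6 and Mt2 at 413 ± 17.5. The libraries of Gsto1 and Gpx3 on day 0 in preadipocytes overlapped, and those of the other neighbours named here did not. All further levels are CPM and are compared between samples of the same gene.

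The time courses of WT cells carried most of the changes. A member was called when the edgeR quasi-likelihood test gave a Benjamini-Hochberg adjusted p under 0.05 over all genes tested and the fold was at least 1.5. From day 0 to day 4 in WT MEFs, 24 of 44 members rose and 4 fell, beside 14.8% and 18.4% of all genes tested. From day 0 to day 12, 17 rose and 2 fell, beside 12.5% and 13.8% of all genes. With scaling by library size alone 17 rose and 5 fell, beside 11.3% and 15.9% of all genes. In WT preadipocytes 6 of 43 members rose and 10 fell by day 3, beside 11.1% and 13.6% of all genes. By day 9, 17 rose and 8 fell, beside 25.8% and 27%. The median log2 fold change was 0.78 over the members and 0.04 over all genes tested on day 4 in MEFs, and -0.13 over the members and 0.01 over all genes tested on day 3 in preadipocytes. It was 0.79 over the members and -0.07 over all genes tested on day 12 in MEFs, and 0.19 over the members and -0.01 over all genes tested on day 9 in preadipocytes. Adipocyte and macrophage markers changed over the same days, as given above. In both cell types the cocktail had also been replaced by insulin and T3 before the last day. The part of the markers' cells or of the medium in these changes was not tested.

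**Figure D1:**
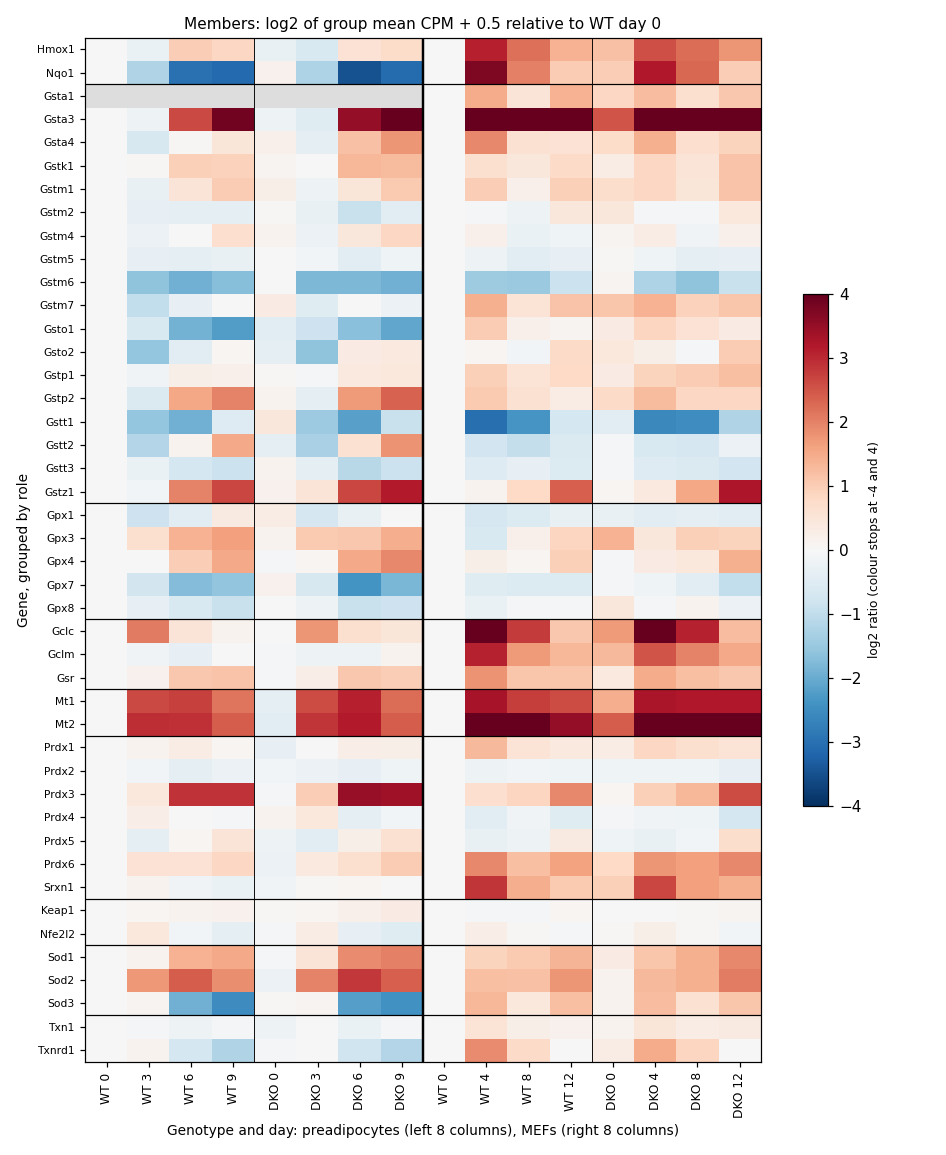
Each row is a member tested in at least 1 time comparison, grouped by role, and each column is a genotype and day, with colour giving the log2 ratio of the group mean CPM plus 0.5 to that of WT day 0 of the same cell type (grey, not tested). Gclc, Gclm, Hmox1, Nqo1, Srxn1 and Txnrd1 are red on days 4 and 8 in MEFs and mostly pale or blue in preadipocytes, while Mt1, Mt2, Sod2, Prdx3, Gstz1 and Gsta3 are red late in both.

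Genes of glutathione synthesis rose steeply in MEFs on day 4. Gclc, the catalytic subunit of the first enzyme, stood at 24.6, 23.5 and 22.5 CPM in the 3 WT libraries of day 0, at 255, 801 and 774 on day 4, at 66.0, 369 and 65.2 on day 8 and at 52.2, 49.4 and 48.7 on day 12. All day 4 libraries were far above all day 0 libraries, and by day 12 most of the rise was gone. On day 4 Gclc was 25.7-fold higher (log2 fold change 4.69 ± 0.74 SE, adjusted p = 4.73e-04). Gclm, which encodes the modifier subunit, stood at 39.9, 41.9 and 37.4 CPM on day 0 and 200.2, 421 and 388 on day 4, again with no overlap, and was 8.39-fold higher (log2 fold change 3.07 ± 0.59 SE, adjusted p = 0.00159). Gsr, which regenerates glutathione, rose 3.504-fold on day 4 and was still 2.15-fold above day 0 on day 12 (adjusted p = 2.22e-04 and 0.00555).

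Enzymes known as NRF2 targets followed the same course in MEFs. Hmox1, which degrades haem, stood at 189, 182 and 197 CPM on day 0 and 1042, 1860.4 and 1984 CPM on day 4 in WT libraries, and was 8.52-fold higher (log2 fold change 3.09 ± 0.62 SE, adjusted p = 0.00203). Nqo1, a quinone reductase, stood at 5.67, 3.94 and 5.25 CPM on day 0 and 49.4, 84.1 and 80.7 on day 4, and was 14.3-fold higher (log2 fold change 3.84 ± 0.57 SE, adjusted p = 2.99e-04). Neither gene's day 4 libraries overlapped those of day 0. Srxn1, which repairs overoxidised peroxiredoxins, rose 7.17-fold (adjusted p = 3.82e-04), and Txnrd1, the cytosolic thioredoxin reductase, rose 3.68-fold (adjusted p = 0.00111). On day 12 neither Hmox1 nor Nqo1 nor Txnrd1 passed the test against day 0. Their log2 fold changes were then 1.38 ± 0.58, 1.07 ± 0.55 and 0.01 ± 0.33 (adjusted p = 0.0813, 0.144 and 0.978).

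In preadipocytes Gclc rose on day 3, and no other gene of synthesis or target enzyme passed the test upward on that day. Gclc stood at 27.7, 37.2 and 24.3 CPM in WT libraries on day 0, at 192, 104 and 88.4 on day 3 and at 35.2, 30.7 and 33.4 on day 9. The day 3 libraries were all above those of day 0, 4.33-fold higher (log2 fold change 2.11 ± 0.27 SE, adjusted p = 1.83e-04), and the first of them was the highest. Gclm stood at 72.6, 78.2 and 67.0 CPM on day 0 and 75.4, 62.6 and 61.2 on day 3, with overlapping libraries (adjusted p = 0.273). Nqo1 moved in the opposite direction to its course in MEFs. It stood at 29.0, 31.9 and 17.0 CPM on day 0, 14.2, 9.51 and 9.29 on day 3, 3.38, 1.99 and 3.23 on day 6 and 2.50, 2.18 and 3.08 on day 9, and was 9.93-fold lower (log2 fold change -3.31 ± 0.30 SE, adjusted p = 1.88e-06). Txnrd1 also fell by day 9, 2.29-fold (adjusted p = 5.94e-07), from 192 ± 3.66 to 83.0 ± 3.05 CPM (mean ± SD, n = 3). Hmox1 and Gsr rose by day 9, 1.80-fold and 2.27-fold (adjusted p = 0.00111 and 3.81e-06). Srxn1 stood between 94.8 and 143 CPM in all WT preadipocyte libraries and passed the test on neither day.

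Transcripts of the regulators moved little. Nfe2l2 stood at 111, 113 and 112 CPM in WT MEFs on day 0 and 120.3, 145 and 142 on day 4, and Keap1 at 56.7, 56.1 and 61.2 and 55.8, 53.5 and 57.8 CPM. In WT preadipocytes Nfe2l2 stood at 147 ± 5.91 CPM on day 0, 197 ± 17.0 on day 3 and 113 ± 9.58 on day 9, and Keap1 at 51.0 ± 1.12, 54.0 ± 0.315 and 57.4 ± 3.31. Neither gene passed the test in any of the 4 time comparisons. The NRF2 protein was not measured.

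**Figure D2:**
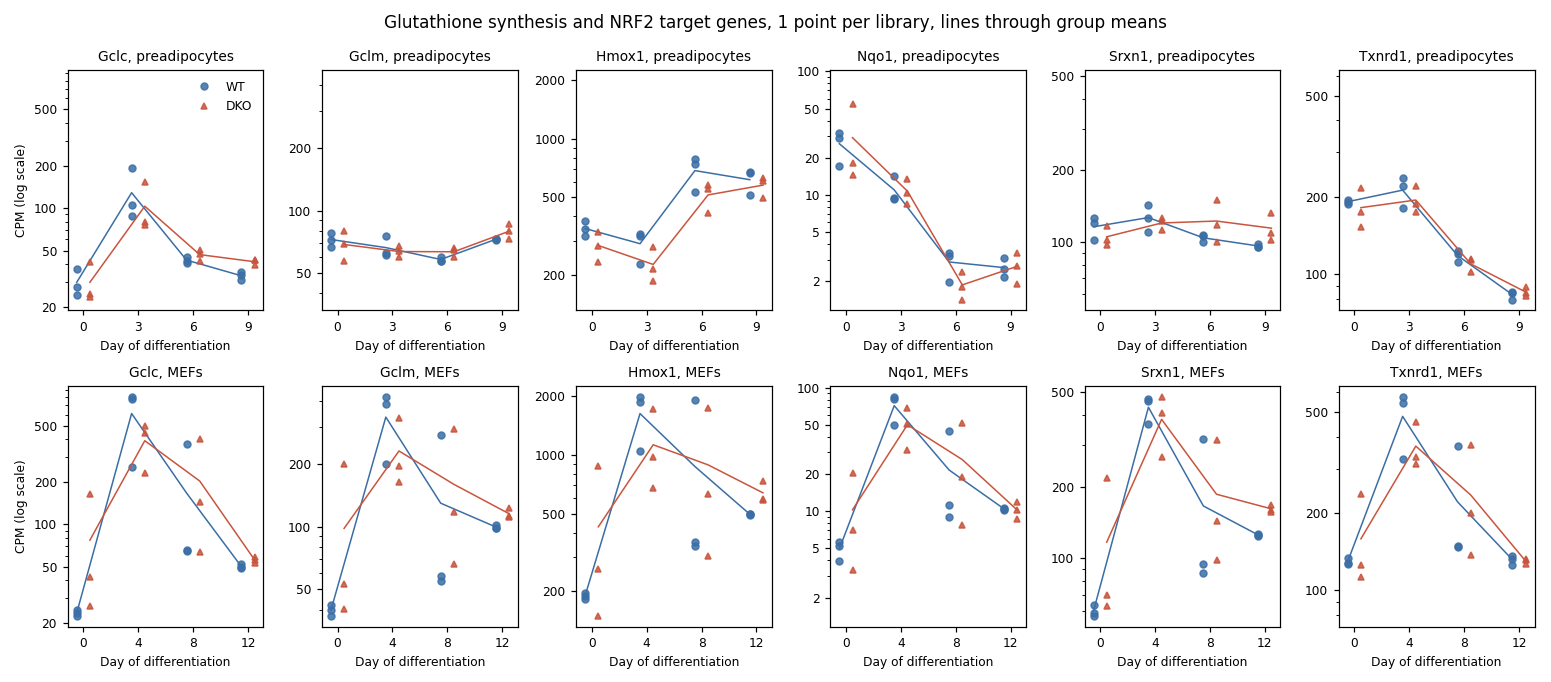
CPM on a log scale against day for 6 genes of glutathione synthesis and NRF2 response in preadipocytes (top) and MEFs (bottom), with 1 point per library, WT as circles and DKO as triangles, lines through the group means and 1 shared axis per gene. In MEFs the group means peak on day 4 and the day 8 libraries split into high and low, and in preadipocytes Gclc peaks on day 3 while Nqo1 falls from 26.0 to 2.59 CPM in WT cells.

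On days 4 and 8 the MEF libraries of a group differed widely, and the NRF2 target genes were mostly high where Adipoq, the fat-cell hormone adiponectin, was low. On day 8, WT replicate 2 had 20.02 CPM of Adipoq and 369 of Gclc, while WT replicates 1 and 3 had 250.4 and 245 of Adipoq and 66.0 and 65.2 of Gclc. DKO replicate 3 of day 8 had 18.8 CPM of Adipoq and 401 of Gclc, against 389 and 64.0 in DKO replicate 1. Both libraries with low Adipoq also carried the highest Gclm, Hmox1, Nqo1, Srxn1 and Txnrd1 of day 8. On day 4, WT replicate 1 had 89.5 CPM of Adipoq and 255 of Gclc, while WT replicates 2 and 3 had 4.96 and 3.904 of Adipoq and 801 and 774 of Gclc. DKO replicate 2 of day 4 did not follow this order, with less Adipoq than DKO replicate 1 (33.3 against 39.8 CPM) and also less Hmox1 (678 against 1725 CPM). The part of the extent of differentiation in these levels was not tested. Without WT replicate 1, 32 members passed the test on day 4 in place of 28, beside 15.1% of all genes higher and 19.8% lower, and the log2 fold change of Gclc was 5.05.

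**Figure D3:**
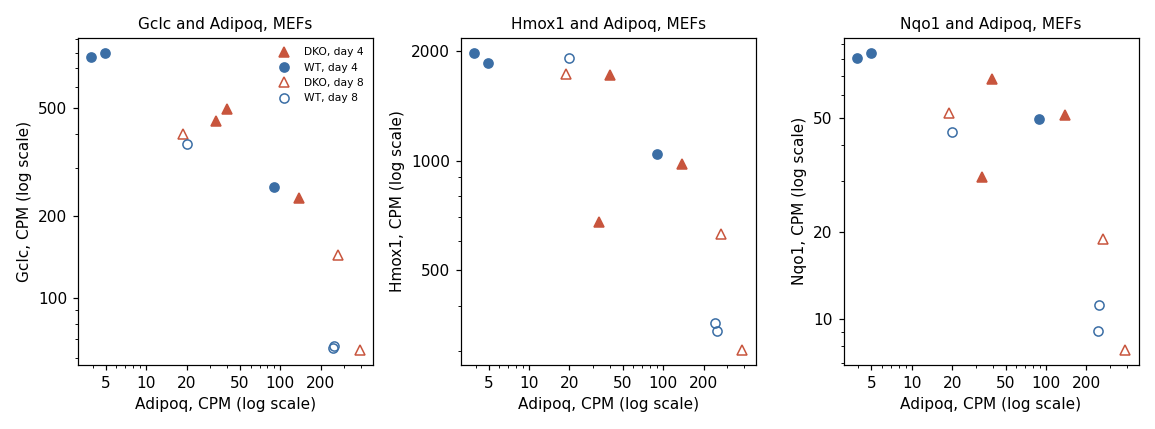
Gclc, Hmox1 and Nqo1 against Adipoq, all in CPM on log scales, in the 12 MEF libraries of days 4 (filled) and 8 (open), with WT as circles and DKO as triangles. For Gclc the points run from 801 CPM in a library with 4.96 CPM of Adipoq down to 64.0 CPM in the library with 389, and DKO replicate 2 of day 4 lies below that course for Hmox1 and Nqo1.

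Metallothioneins rose early in both cell types and stayed up. In WT preadipocytes Mt1 stood at 162, 127 and 110.2 CPM on day 0, 855, 931 and 726 on day 3 and 623, 552 and 597 on day 9. Mt2 stood at 191, 160.3 and 159 CPM on day 0, 1272, 1472 and 1246 on day 3 and 955, 896 and 924 on day 9. Every induced library was above every day 0 library for both genes. On day 3 Mt1 was 6.31-fold higher (log2 fold change 2.66 ± 0.16 SE, adjusted p = 7.19e-07) and Mt2 7.83-fold higher (log2 fold change 2.97 ± 0.12 SE, adjusted p = 6.10e-08). In WT MEFs both genes started lower. The rise to the first induced day was steeper in MEFs than in preadipocytes for Mt2 (difference in log2 fold change 1.40 ± 0.27 SE, adjusted p = 9.42e-04), and for Mt1 the difference of 0.65 ± 0.28 did not pass (adjusted p = 0.0990), in the test of both cell types together. Mt2 stood at 23.4, 15.0 and 24.2 CPM on day 0, 328, 433 and 552 on day 4 and 245, 252 and 232 on day 12, which made day 4 20.8-fold higher (log2 fold change 4.38 ± 0.27 SE, adjusted p = 6.72e-07). Mt1 was 9.98-fold higher on day 4 and 6.19-fold higher on day 12 (adjusted p = 1.88e-06 and 1.18e-05). The promoters of Mt1 and Mt2 held 3 and 6 matches to the loose metal response pattern, and 51% of all promoters held at least 1. Those of Srxn1, Gclm and Gstm1 also held 3 each, and the part of such matches in any of these changes was not tested.

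Superoxide dismutases rose in 5 of their 6 tests between the first and last day, and the exception fell. Sod2, the mitochondrial enzyme, stood at 47.9, 44.2 and 57.4 CPM in WT preadipocytes on day 0, 126, 171 and 203 on day 3 and 171, 188 and 183 on day 9. It was already 3.36-fold higher on day 3 and 3.68-fold higher (log2 fold change 1.88 ± 0.15 SE, adjusted p = 4.21e-07) on day 9, with no overlap on either day. In WT MEFs Sod2 went from 45.1, 42.7 and 44.0 CPM on day 0 to 155, 144 and 148 on day 12, 3.37-fold higher (adjusted p = 4.52e-08). Sod1, the cytosolic enzyme, rose 2.91-fold by day 9 in preadipocytes and 2.58-fold by day 12 in MEFs (adjusted p = 3.82e-08 and 3.93e-07). Sod3, the secreted enzyme, stood at 359.8, 459.5 and 433 CPM in WT preadipocytes on day 0 and 72.4, 72.4 and 73.2 on day 9, 5.67-fold lower (log2 fold change -2.50 ± 0.15 SE, adjusted p = 4.91e-08). In MEFs Sod3 rose instead, from 24.3 ± 6.78 to 55.9 ± 1.56 CPM on day 12 (mean ± SD, n = 3), 2.30-fold higher.

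Among peroxiredoxins, which reduce peroxides with a cysteine of their own, Prdx3 of the mitochondria moved most by the last day. It stood at 59.0, 54.7 and 54.9 CPM in WT preadipocytes on day 0, 66.2, 79.7 and 79.0 on day 3, 397, 479 and 389 on day 6 and 426, 421 and 413 on day 9, and was 7.57-fold higher (log2 fold change 2.92 ± 0.10 SE, adjusted p = 9.24e-10). In WT MEFs it went from 57.1, 49.6 and 54.3 CPM on day 0 to 113, 74.1 and 72.1 on day 4 and 205, 206 and 209.9 on day 12, 1.597-fold higher on day 4 (adjusted p = 0.00593) and 3.84-fold higher (log2 fold change 1.94 ± 0.17 SE, adjusted p = 9.82e-06) on day 12. Prdx6, which also acts on phospholipids, rose in all 4 time comparisons, by 1.51-fold and 1.80-fold in preadipocytes and by 3.80-fold and 3.07-fold in MEFs. Its call on day 3 was lost when any of 3 single libraries was left out, where the fold was under 1.5 at log2 fold changes down to 0.50. Prdx1 rose 2.42-fold (adjusted p = 5.44e-04) in MEFs on day 4, from 559 ± 28.2 to 1361 ± 337 CPM.

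Glutathione peroxidases split by gene. Gpx4, which protects membranes from lipid peroxides, stood at 196, 178 and 164 CPM in WT preadipocytes on day 0 and 519, 505 and 528 on day 9, 2.92-fold higher, and was 1.94-fold higher on day 12 in MEFs (adjusted p = 2.14e-07 and 6.96e-06). Gpx3 rose 3.19-fold (adjusted p = 6.95e-05) in preadipocytes by day 9, from 399 ± 28.8 to 1255 ± 239 CPM. It was also called on day 3, 1.58-fold (adjusted p = 0.0409), but leaving out any 1 of 5 of the 6 libraries ended that call, with adjusted p up to 0.171 and log2 fold changes down to 0.38 without WT replicate 3 of day 3. Gpx7 and Gpx8, which work in the endoplasmic reticulum, fell by day 9 in preadipocytes, 3.07-fold and 1.83-fold (adjusted p = 7.81e-07 and 8.51e-06). Gpx1 fell early in both, 1.78-fold (adjusted p = 0.00158) on day 3 in preadipocytes and 1.59-fold (adjusted p = 2.29e-04) on day 4 in MEFs. Without WT replicate 2 of day 4 the MEF value fell below the fold asked, at a log2 fold change of -0.56.

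Glutathione S-transferases changed in both directions. Of the 17 tested in preadipocytes, 7 fell by day 3 and none was called higher, beside 13.6% lower and 11.1% higher among all genes. By day 9, 7 rose and 3 fell, beside 25.8% and 27% of all genes. Of the 18 tested in MEFs, 9 rose and 3 fell by day 4, beside 14.8% and 18.4%. By day 12, 8 rose and 2 fell, beside 12.5% and 13.8%. Gsta3, an alpha-class transferase, stood at 3.16, 1.97 and 1.03 CPM in WT preadipocytes on day 0, 2.42, 1.49 and 1.199 on day 3, 16.3, 19.6 and 10.02 on day 6 and 34.7, 40.2 and 35.3 on day 9, 17.9-fold higher (log2 fold change 4.16 ± 0.37 SE, adjusted p = 2.58e-06). In WT MEFs it stood at 0.892, 0.574 and 1.00 CPM on day 0, 39.5, 27.1 and 26.8 on day 4 and 92.6, 96.9 and 90.5 on day 12, 113-fold higher (log2 fold change 6.81 ± 0.22 SE, adjusted p = 1.72e-08). Gsta3 was thus up by day 4 in MEFs, and its day 3 libraries in preadipocytes overlapped those of day 0. Gstz1, which takes part in the breakdown of phenylalanine and tyrosine, went from 19.7, 20.6 and 17.4 CPM on day 0 to 126, 122 and 129 on day 9 in WT preadipocytes, 6.61-fold higher. In WT MEFs it went from 25.5, 25.6 and 23.8 CPM to 132, 128 and 136 on day 12, 5.26-fold higher (adjusted p = 5.91e-09 and 2.07e-05).

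Other transferases fell. Gsto1, an omega-class enzyme, stood at 489, 536 and 468 CPM in WT preadipocytes on day 0 and 116, 95.5 and 103 on day 9, 4.69-fold lower (log2 fold change -2.23 ± 0.11 SE, adjusted p = 8.51e-09). In MEFs Gsto1 rose 2.01-fold (adjusted p = 8.51e-04) by day 4. Gstt1, a theta-class enzyme, fell in MEFs from 12.7, 13.0 and 15.3 CPM on day 0 to 1.65, 1.34 and 0.720 on day 4, 10.96-fold lower (log2 fold change -3.45 ± 0.27 SE, adjusted p = 1.64e-06), and stood at 8.36, 7.58 and 8.44 CPM on day 12. It also fell by day 3 in preadipocytes, 3.22-fold (adjusted p = 0.00103), where it was back at 6.35, 7.05 and 6.92 CPM on day 9. The smaller falls of Gstt1 and Gstt2 on day 12 in MEFs (1.69-fold and 1.59-fold) were lost when single libraries were left out, with adjusted p up to 0.0813 and 0.134. Gstm6, a mu-class gene at low counts, was 6.44-fold lower on day 3 in preadipocytes and 3.37-fold lower on day 4 in MEFs. Without WT replicate 1 of day 3 its log2 fold change in preadipocytes was -3.31 in place of -2.69. Gsta1 had at most 3 counts in each WT MEF library of day 0, and against that floor of 3 counts per library it was at least 8.54-fold higher on day 4 and at least 7.94-fold higher on day 12, at 0.573 to 1.29 CPM and 0.602 to 1.09 CPM.

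The remaining transferases called were mostly of low level. In WT preadipocytes by day 9, Gstp2 rose 4.56-fold, Gstt2 3.12-fold, Gstm1 2.07-fold, Gstk1 1.98-fold and Gstm4 1.64-fold, and Gstt3 fell 1.84-fold. By day 3 Gsto2 had fallen 4.38-fold, Gstm7 2.61-fold, Gstt2 2.58-fold and Gstp2 1.67-fold. In WT MEFs Gsta4, which detoxifies the lipid aldehyde hydroxynonenal, rose 3.88-fold by day 4, and Gstp1, Gstm1 and Gstk1 rose 1.91-fold, 1.98-fold and 1.601-fold. In MEFs Gsto2 and Gstm7 were also higher on day 12, 2.07-fold and 2.81-fold. Of the 44 members tested, Gstm2, Gstm5, Keap1, Nfe2l2, Prdx2, Prdx4, Prdx5 and Txn1, which encodes cytosolic thioredoxin, passed the test in none of the 4 time comparisons. Txn1 stood at 136 ± 17.1 CPM on day 0 and 129 ± 6.83 on day 9 in WT preadipocytes, and at 88.3 ± 2.63 and 98.9 ± 5.71 on days 0 and 12 in WT MEFs (mean ± SD, n = 3).

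**Figure D4:**
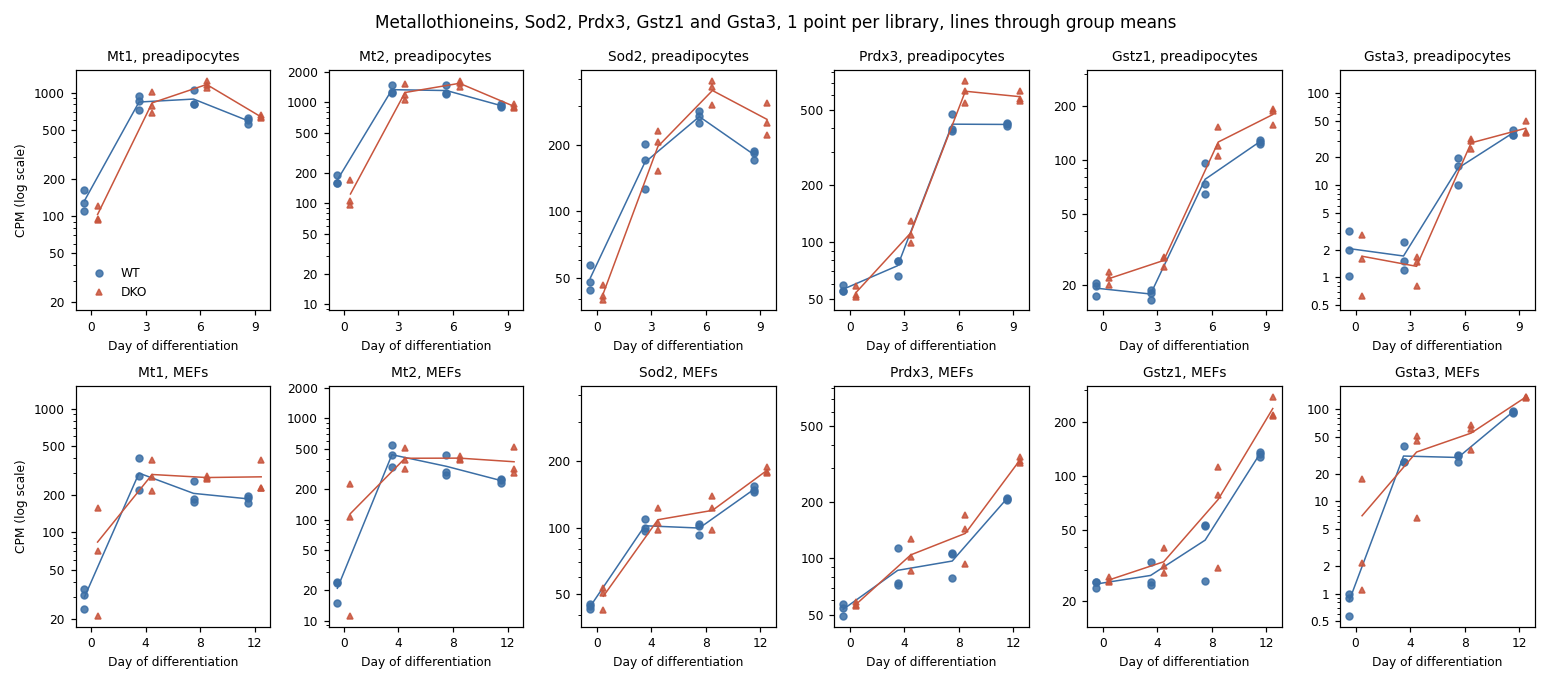
CPM on a log scale against day for Mt1, Mt2, Sod2, Prdx3, Gstz1 and Gsta3 in preadipocytes (top) and MEFs (bottom), with 1 point per library, WT as circles and DKO as triangles, lines through the group means and 1 shared axis per gene. Mt1, Mt2 and Sod2 are up by the first induced day. In WT cells Gstz1 is higher on the last day but was not called on the first induced day. The DKO triangles of Gstz1 on the first induced day lie above those of day 0 in both cell types. In WT MEFs Prdx3 is up 1.597-fold by day 4 and further on day 12. The DKO triangles of Prdx3 and Gstz1 lie above the WT circles on day 9 in preadipocytes and day 12 in MEFs.

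To ask whether the early response differed between the cell types, the change from day 0 to the first induced day was compared in 1 fit of all 24 WT libraries, a test added after the other results had been seen. The change was larger or more positive in MEFs (day 4) than in preadipocytes (day 3) for 23 of 44 members and more negative for 2, beside 7.52% and 7.34% of all genes tested. For Nqo1 the difference in log2 fold change was 5.07 ± 0.63 SE (adjusted p = 2.62e-05), and for Hmox1 3.34 ± 0.65 (adjusted p = 0.00139). For Nfe2l2 and Keap1 it was -0.17 ± 0.11 and -0.17 ± 0.10, and neither was called. The 2 members with a more negative change were Gstt1 and Gpx3, and the call of Gpx3 was lost without any 1 of 7 of the 12 libraries, with adjusted p up to 0.104. For Gstp2 the difference of 2.77 fell to 2.02 without WT replicate 3 of day 4 in MEFs. The cell type, the day of sampling and the run of each experiment cannot be told apart here.

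DKO cells were then compared with WT cells on each day. In preadipocytes on day 0, edgeR called 0 of 43 members, DESeq2 called 0 and limma-voom 0, and edgeR called 0.0727% of all genes higher and 0.145% lower. In edgeR 5 members had an unadjusted p under 0.05, beside 1188 of 15123 genes tested. On day 3 edgeR called 0 of 42 members, DESeq2 called 1 and limma-voom 0. Among all genes edgeR called 0.165% higher and 0.172% lower, and DESeq2 1.82% and 0.88%. In edgeR 4 members had an unadjusted p under 0.05, beside 1838 of 15119 genes tested. The member called by DESeq2 on day 3 was Gstz1, at 28.5, 28.7 and 25.2 CPM in DKO and 16.6, 18.8 and 18.1 in WT libraries, which did not overlap (edgeR adjusted p = 0.0569). On day 6, 4 of 42 members were higher in DKO cells and none lower, while 5.03% of all genes were called higher and 6.53% lower. An unadjusted p under 0.05 was found for 19 members, beside 5468 of 14694 genes tested. DESeq2 called 4 members higher and 1 lower on that day, beside 5% and 7.55% of all genes. Scaling by library size alone gave 3 higher (Gstz1 was lost) and 2 lower, Gpx7 and Gstm2, beside 3.42% and 8.47%. On day 9, 1 of 42 was higher and none lower, beside 0.469% and 0.776% of all genes. DESeq2 also called 1 member, beside 1.22% of all genes higher and 4.4% lower. In edgeR 10 members had an unadjusted p under 0.05 on that day, beside 3984 of 14700 genes tested. The median log2 fold change on day 6 was 0.12 over the members and -0.01 over all genes tested.

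The members called in DKO preadipocytes were all glutathione S-transferases. Gsta4, which detoxifies lipid aldehydes, stood at 7.43, 11.4 and 9.39 CPM in DKO and 3.31, 5.08 and 3.91 in WT libraries on day 6, 2.27-fold higher (log2 fold change 1.19 ± 0.20 SE, adjusted p = 0.00821). On day 9 it stood at 16.03, 11.3 and 16.4 CPM in DKO and 5.15, 6.11 and 5.73 in WT libraries, 2.50-fold higher (log2 fold change 1.32 ± 0.17 SE, adjusted p = 0.0235). The groups did not overlap on either day, and on day 0 they did, at 6.999, 2.69 and 4.15 against 3.36, 5.60 and 2.75 CPM. The day 6 call of Gsta4 held without any single library. The day 9 call was lost without any 1 of 5 libraries, with adjusted p up to 0.143 and log2 fold changes between 1.23 and 1.48. Gsta3 stood at 31.7, 30.2 and 24.6 CPM in DKO and 16.3, 19.6 and 10.02 in WT libraries on day 6, 1.87-fold higher (log2 fold change 0.91 ± 0.23 SE, adjusted p = 0.0320). Gsto2 stood at 3.83, 3.15 and 4.15 against 1.597, 2.38 and 2.04 CPM, 1.85-fold higher (log2 fold change 0.89 ± 0.22 SE, adjusted p = 0.0242), and Gstz1 at 119, 152 and 105 against 72.9, 96.2 and 64.1 CPM, 1.603-fold higher (log2 fold change 0.68 ± 0.17 SE, adjusted p = 0.0277). None of these 3 pairs of groups overlapped.

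Apart from that of Gsta4, these day 6 calls depended on single libraries. Only 1 member passed without WT replicate 1, 2 passed without WT replicate 3 and 2 without DKO replicate 3, and 8 passed without WT replicate 2. Of all genes 3.33% and 4.18% were called higher and lower without WT replicate 1, 2.56% and 2.26% without WT replicate 3, 3.05% and 2.85% without DKO replicate 3 and 5.96% and 6.11% without WT replicate 2. The 4 that were added without WT replicate 2 were Gpx4, Prdx3, Sod1 and Gstt2. Prdx3 stood at 545, 718 and 628 CPM in DKO and 397, 479 and 389 in WT libraries on day 6, and at 563, 573 and 634 against 426, 421 and 413 on day 9. The groups of Prdx3 did not overlap on either day, and the log2 fold changes of 0.57 ± 0.12 and 0.45 ± 0.07 lay below the fold of 1.5 (adjusted p = 0.0152 and 0.0418). Without DKO replicate 2 of day 9, 4 members passed on that day, Gsta4, Sod2 and Gsto2 as higher and Gstt1 as lower, beside 2.93% of all genes higher and 6.79% lower in that fit. On day 6 the adipocyte markers summed to 19396 to 24302 CPM in DKO and 13378 to 17212 CPM in WT cells, those of fibroblasts to 852 to 1224 CPM and 2274 to 2736 CPM, and the macrophage markers given above were higher in WT cells. The part of any of them in these differences was not tested.

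In MEFs edgeR called no member by genotype before the last day when all libraries were used, and DESeq2 called 2 on day 0, Gpx3 and Gsta3. On day 0, edgeR called 0 of 43 members, DESeq2 called 2 and limma-voom 0. Among all genes edgeR called 0.0383% higher and 0.0638% lower, and DESeq2 0.44% and 0.619%. In edgeR 8 members had an unadjusted p under 0.05, beside 1454 of 15671 genes tested. On this day the DKO libraries ranged widely, and Gclc stood at 26.3, 163 and 42.3 CPM in them, Hmox1 at 149.8, 873 and 261, Mt2 at 11.2, 226 and 106 and Gpx3 at 753, 2210.4 and 2394. The second DKO library was above all 3 WT libraries for each of these genes, while the first was below all 3 for Mt2 and Hmox1 and within their range for Gpx3. Without DKO replicate 1, 5 members were called higher, Gpx3, Prdx6, Mt2, Gstm1 and Gstm2, beside 1.07% of all genes higher and 2.21% lower. Without DKO replicate 2 edgeR called 0 members, with 5 at an unadjusted p under 0.05, and without DKO replicate 3 it called 0, with 8. Counts of all genes at that p were not taken in fits that left out libraries, here and below. On day 4 edgeR called 0 of 44 members, DESeq2 called 0 and limma-voom 0, beside 0.0194% and 0.0711% of all genes in edgeR. In that edgeR fit 1 member had an unadjusted p under 0.05, beside 915 of 15475 genes tested. On day 8 edgeR called 0 of 43 members, DESeq2 called 0 and limma-voom 0, beside 0.0132% and 0.0463% of all genes in edgeR. In edgeR 5 members had an unadjusted p under 0.05, beside 1295 of 15117 genes tested. The 2 libraries that stood apart, WT replicate 2 and DKO replicate 3, were in these fits. With those 2 left out together, a choice made after their values were seen, edgeR called 4 members higher in DKO cells, with 18 at an unadjusted p under 0.05. These were Gsta3 (log2 fold change 1.01 ± 0.08 SE, adjusted p = 6.30e-04), Gstz1 (0.83 ± 0.18 SE, adjusted p = 0.0464), Gpx3 (0.62 ± 0.07 SE, adjusted p = 0.00300) and Mt1 (0.62 ± 0.07 SE, adjusted p = 0.00220), each with 2 libraries a group, while 2.27% of all genes were called higher and 1.73% lower.

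On day 12 the replicates of MEFs lay close together and 2 of 44 members were higher in DKO cells. None was lower, and among all genes 3.92% were higher and 4.05% lower. DESeq2 called 2 members, beside 3.69% of all genes higher and 3.79% lower. An unadjusted p under 0.05 was found for 28 members, beside 6480 of 15319 genes tested. Gstz1 stood at 216, 275 and 219.6 CPM in DKO and 132, 128 and 136 in WT libraries, 1.80-fold higher (log2 fold change 0.85 ± 0.10 SE, adjusted p = 7.03e-04). Prdx3 stood at 322, 344 and 329 against 205, 206 and 209.9 CPM, 1.61-fold higher (log2 fold change 0.69 ± 0.04 SE, adjusted p = 8.42e-09). Neither pair of groups overlapped, and both calls held without any single library. Gsta3, at 134, 137 and 136 against 92.6, 96.9 and 90.5 CPM, and Sod1, at 331, 358 and 347 against 234, 239 and 239 CPM, did not overlap either, but their log2 fold changes of 0.55 ± 0.04 and 0.55 ± 0.04 fell short of a fold of 1.5 (adjusted p = 6.45e-08 and 6.85e-08). The adipocyte markers summed to 15253 to 16292 CPM in DKO and 9784 to 10056 CPM in WT MEFs on that day, and the macrophage markers to 2225 to 2572 CPM and 3656 to 3683 CPM. Their part in the differences was not tested.

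**Figure D5:**
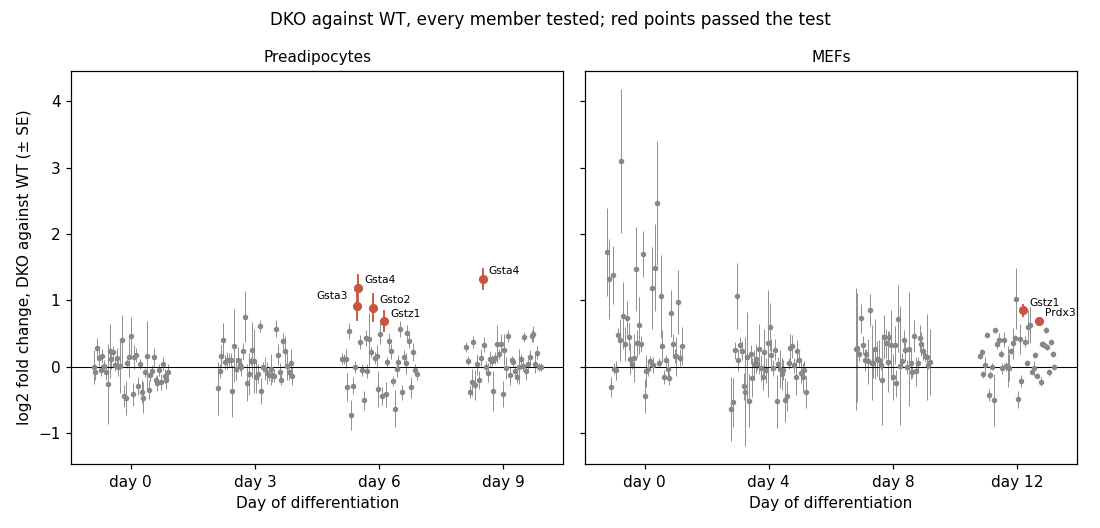
Each point is a member tested, placed by its log2 fold change of DKO against WT (± SE) on each day, in preadipocytes (left) and MEFs (right), with red, named points for members that passed the test. The spread is widest on day 0 in MEFs, where the DKO libraries disagreed, and the red points are Gsta4 on days 6 and 9, Gsta3, Gsto2 and Gstz1 on day 6, and Gstz1 and Prdx3 on day 12.

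Whether the time course itself differed by genotype was tested as the difference between the genotypes in the change from day 0 to the last day. In preadipocytes edgeR called 0 of 43 members, DESeq2 called 1 and limma-voom 0. Among all genes edgeR called 0.261% with a more positive and 0.154% with a more negative change in DKO cells, and DESeq2 0.764% and 0.83%. In edgeR 12 members had an unadjusted p under 0.05, beside 2824 of 16877 genes tested. The smallest adjusted p of a member was 0.0882, for Prdx3. Without DKO replicate 2 of day 9, 3 members passed, Sod2, Gsto2 and Gstt2, beside 1.39% of all genes with a more positive and 1.84% with a more negative change. In MEFs edgeR called 0 of 44 members, DESeq2 called 0 and limma-voom 0, beside 0.0235% and 0.0118% of all genes in edgeR. In edgeR 9 members had an unadjusted p under 0.05, beside 1885 of 16996 genes tested. Without DKO replicate 1 of day 0, 3 passed with a more negative change, Mt2, Gstm7 and Gpx8, beside 0.974% of all genes more negative and 0.559% more positive. Without DKO replicate 2 or 3 of day 0, edgeR called 0 members in each case, with 7 and 8 at an unadjusted p under 0.05. The median log2 difference over the members was -0.19 with all libraries, 0.00 without replicate 2 and -0.23 without replicate 3.

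A list of 47 further genes of the same pathways gave the wider picture. Of the 46 tested over time in each cell type, 20 rose and 5 fell in WT MEFs by day 4 and 18 rose by day 12 with none called lower, while 7 rose and 3 fell in WT preadipocytes by day 3 and 24 rose and 7 fell by day 9, to be read against the shares of all genes given with the members' time courses. Catalase (Cat), which breaks down hydrogen peroxide in peroxisomes, went from 72.3 ± 2.54 to 667 ± 29.5 CPM (mean ± SD, n = 3) by day 9 in WT preadipocytes, 9.35-fold higher, and from 136 ± 6.50 to 908 ± 15.1 CPM by day 12 in WT MEFs, 6.66-fold higher. Slc7a11, the cystine transporter that feeds glutathione synthesis, stood at 13.4 ± 0.576 CPM on day 0 and 188 ± 91.9 on day 4 in WT MEFs, 13.8-fold higher (log2 fold change 3.79 ± 0.37 SE, adjusted p = 1.77e-05). In WT preadipocytes it fell 4.05-fold (adjusted p = 3.09e-04) by day 9. Mgst1, a microsomal transferase, rose in all 4 time comparisons, by 3.33-fold to 9.67-fold. Gss, the second enzyme of glutathione synthesis, rose 2.21-fold (adjusted p = 9.83e-06) on day 4 in MEFs.

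By genotype, edgeR called 0 of 45 on day 0 in preadipocytes, with 5 at an unadjusted p under 0.05, beside 1188 of 15123 genes tested. On day 3 it called 1 as higher, Me1, which supplies NADPH, beside 0.165% of all genes. It called 7 as higher and 2 as lower on day 6, beside the 5.03% and 6.53% of all genes given above, and 2 as higher on day 9, beside 0.469%. In MEFs it called 0 on days 0, 4 and 8, with 3, 4 and 8 at an unadjusted p under 0.05, and 7 as higher on day 12, beside 3.92% of all genes. The counts of all genes at that p are given above for each day. Other tools were not summed over this list. The carbonyl reductases Cbr1 and Cbr3, which reduce reactive carbonyls, were higher in DKO cells on the late days of both cell types. Cbr3 stood at 49.1 ± 6.27 CPM in DKO and 14.6 ± 1.10 in WT preadipocytes on day 9, 3.26-fold higher (log2 fold change 1.71 ± 0.11 SE, adjusted p = 0.00120), and at 34.8 ± 1.184 against 16.3 ± 2.51 CPM in MEFs on day 12, 2.15-fold higher (log2 fold change 1.10 ± 0.09 SE, adjusted p = 3.55e-07). Cbr1 was 1.95-fold higher on day 9 and 1.90-fold higher on day 12 (adjusted p = 0.0262 and 2.54e-07). Both were also the only listed genes whose change from day 0 to day 9 differed by genotype in preadipocytes, by 1.89 ± 0.26 (log2, SE, adjusted p = 0.00174) for Cbr3. Both lie on chromosome 16 of mm10, at chr16:93605853-93610505 for Cbr1 and chr16:93683215-93690990 for Cbr3, the chromosome that also holds Hmgn1 (chr16:96120618-96127729) and the member Sod1 (chr16:90220754-90226329).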

How the data were processed

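RNA was measured in 48 libraries of WT and DKO preadipocytes and MEFs, 3 per group. The authors sequenced 50-base read pairs on an Illumina HiSeq 3000, ran bcl2fastq 2.17 and Cutadapt 1.18 on them, used STAR 2.7.0f to map the reads to mm10 and took counts per gene from RSEM 1.3.0. The deposited values are these expected counts, 1 table per cell type, of which 5.5% to 7.9% were not whole. RSEM divides reads between genes with shared sequence, which can move counts between close paralogs.

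Expected counts were rounded to whole numbers. Genes with low counts were dropped by edgeR's filterByExpr, libraries were scaled by TMM, and each contrast was tested with edgeR's quasi-likelihood test (version 4.0.16, R 4.3.3), with p-values adjusted over all genes tested by Benjamini-Hochberg. Genotypes were compared within a day on the 6 libraries concerned, days within WT cells on all 12 WT libraries of a table, and the difference between genotypes in the change over time on all 24 libraries of a table. DESeq2 (1.42.0), limma-voom with quantile normalization (limma 3.58.1), library size scaling, no filter, a replicate block and the omission of each library were alternatives. CPM values were TMM-scaled within the cell type's table, and SDs are over 3 libraries. Libraries of a group differed by chi-square values of 2.11 to 153.8 per degree of freedom of their counts, more than counting noise alone in every pair, though in the closest pairs counting noise was a large part of the difference. No pair was averaged as 1 sample, and these values do not show whether libraries came from separate cultures. The procedure was tested on simulated counts with known changes. Members and lists were chosen with earlier results of these data known. In each comparison the members called were named, up to the 8 largest changes per direction without overlap between groups, and the genes of glutathione synthesis, NRF2 response, superoxide dismutases and metallothioneins were described throughout. Members and pathway genes named beyond that, such as Prdx1, Gstp1, Gstm1, Gstk1, Cat, Mgst1 and Gss, were chosen after their values were seen. Promoters came from RefSeq and gene positions from GENCODE M21.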

Additional observations from a re-analysis of the deposited data

Results flagged for a closer look

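The change from day 0 to the first induced day in WT cells (day 4 in MEFs, day 3 in preadipocytes) differed between the cell types for 10 members that stood out by size, by a test of the difference itself that was added after the data were seen. Each value is the log2 fold change in MEFs minus that in preadipocytes, with its SE. The difference was 5.52 ± 0.49 for Gsta3, 5.07 ± 0.63 for Nqo1, 3.34 ± 0.65 for Hmox1, 3.19 ± 0.60 for Gclm and 3.18 ± 0.43 for Gstm7. It was 2.77 ± 0.64 for Gstp2, 2.74 ± 0.60 for Gsta4 and 2.701 ± 0.45 for Srxn1. Gstt1 (-1.77 ± 0.42) and Gpx3 (-1.28 ± 0.42) went the other way. The day of sampling, the origin of the cells and the table cannot be told apart from the cell type.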

How the results depend on the processing

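The 69 calls of single members counted here were those picked by size, up to the 8 largest per direction in each comparison. Other calls described, such as those of Srxn1 and Txnrd1 on day 4 in MEFs, were not in this count. Of the 69, 69 held with DESeq2, 69 with limma-voom and 67 with scaling by library size alone. Without a filter on low counts 65 held, with a replicate block 68 held, and none changed direction. Leaving out 1 library at a time kept 433 of 474 such calls, and the other 41 were lost with the same direction. DESeq2 called 1 member of the DKO comparison on day 3 in preadipocytes, 1 of the genotype difference over time in preadipocytes and 2 of the DKO comparison on day 0 in MEFs, where edgeR called 0. In each of these DESeq2 also called more of all genes than edgeR, at the shares given above. Without a filter on low counts 1 member was called on day 3 in preadipocytes. Without WT replicate 2 and DKO replicate 3 of day 8, 4 were called in MEFs on that day, in place of 0. The cause of these changes was not tested.

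Leaving out single libraries moved the number of members called by genotype between 1 and 8 on day 6 and between 0 and 4 on day 9 in preadipocytes, and between 0 and 5 on day 0 and 2 and 3 on day 12 in MEFs. It ranged from 0 to 3 for the genotype differences over time in each cell type and stayed at 0 for the other days. Over time in WT cells it ranged from 14 to 15 on day 3 and 25 to 27 on day 9 in preadipocytes, from 27 to 32 on day 4 and 16 to 20 on day 12 in MEFs, and from 23 to 28 for the difference between the cell types.

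Same-numbered libraries deviated together with correlations between -0.69 and 0.60 across genotypes and between -0.22 and 0.46 between WT day 0 and later days, with none of these in which all 3 exceeded 0.1. All 3 exceeded it in preadipocytes between DKO days 0 and 3 (0.41 to 0.56), DKO days 6 and 9 (0.37 to 0.46) and WT days 6 and 9 (0.13 to 0.45), which no test compares directly. The numbers were therefore not used as pairs in the contrasts tested, and whether they mark shared cultures on some days is not known. With a replicate block, 1 member was called on day 3 and 0 on day 9 in preadipocytes, and no other count moved by over 1.5 times.

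Scaling by library size alone moved the median log2 fold change of all genes to -0.11 for DKO against WT on day 6, -0.17 for WT day 9 and -0.11 for the genotype difference over time in preadipocytes, and to 0.17 for WT day 4 and -0.15 for WT day 12 in MEFs. With 3 libraries a group, differences of the size of the spread on days 0, 4 and 8 in MEFs could not be resolved.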

Other observations

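Of the further pathway genes higher in DKO MEFs on day 12, the microsomal transferase Mgst2 stood at 9.72 ± 1.19 CPM against 3.57 ± 0.380 in WT cells (mean ± SD, n = 3, log2 fold change 1.45), and the methionine sulfoxide reductase Msra and the biliverdin reductase Blvrb were also called. In preadipocytes on day 6, Chac1, which degrades glutathione, was higher in DKO cells (log2 fold change 1.68) and Ggt5, which cleaves extracellular glutathione, was lower (-1.36). Among WT time courses Txnip, which inhibits thioredoxin, fell on day 4 in MEFs (log2 fold change -1.98). For the loose metal response pattern, 11 of 22 tested members with the pattern and 7 of 15 without it rose by day 4 in MEFs, beside 14.8% of all genes tested.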
